A study of Mus musculus with 9 samples.

Results

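Rasd1, Ddit4, Sgk1, Tsc22d3, Fkbp5, Klf9 and Nr3c1 were followed in RNA from a pull-down of endothelial ribosomes of white adipose tissue from mice. Nr3c1 encodes the glucocorticoid receptor, and the other 6 are known from other tissues to respond to it. All 7 were listed among the 11802 genes with deposited values. The 7 were chosen by name with earlier results of the comparison between genotypes known, in which Rasd1 and Ddit4 lay at opposite ends. Their differences between genotypes are therefore given as a description. Intervals and calls from the fits over all genes are printed for them as part of that description and support nothing.

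Glucocorticoids are steroid hormones that bind a receptor held in the cytoplasm by chaperones. The bound receptor moves to the nucleus, where it attaches to DNA as a pair of molecules over inverted copies of a short element and switches genes on or off. In adipose tissue the hormone acts on fat storage and release, and in endothelium on tone, adhesion and inflammation. Several of these genes also answer to other signals: Ddit4 and Sgk1 rise under hypoxia, osmotic stress or low energy in many cells, so their RNA is not a measure of the hormone by itself. Corticosterone, the glucocorticoid of mice, was not measured in the files used here.

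The study compared endothelium with and without Mfn2, which encodes mitofusin 2, a protein of the outer mitochondrial membrane that mitochondria need in order to fuse. Both groups carried Pdgfb-iCreERT2, an inducible Cre recombinase driven by an endothelial gene, and Rpl22HA, a ribosomal protein that gains an HA tag where Cre has acted, so that ribosomes of those cells can be pulled down with their RNA (RiboTag). The 4 libraries labelled WT came from Pdgfb-iCreERT2:Rpl22HA mice, with Mfn2 labelled as present in endothelial cells. The 5 libraries labelled KO came from Pdgfb-iCreERT2:Mfn2ideltaEC:Rpl22HA mice, with Mfn2 labelled as absent there. Mice of both groups had free access to food and water on a light and dark cycle, and none is labelled with a hormone treatment. The age, sex and fat depot, the time of day of sampling, the induction of Cre and the mice behind each library are not given in the labels. P-values measure only the spread between these libraries.

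Values are in CPM, reads of a gene scaled to a common library total. The libraries held 1034753 (WT replicate 4) to 3829356 (KO replicate 5) listed reads. Mfn2 itself did not mark the KO libraries by a lower level. It lay at 36.1 ± 15.0 CPM (SD, n = 4) in WT and 66.7 ± 37.0 CPM (SD, n = 5) in KO. Relative to the library median, a scale described below, it differed by -0.16 (SE 0.365, limma adjusted p = 0.898), so its level does not check the labels, on which every direction below depends. The deleted exons are not named in those labels. The 2 groups also differed in the makeup of their libraries. The mitochondrial ribosomal RNAs mt-Rnr1 and mt-Rnr2 took 64.8%, 47.5% and 48.3% of listed reads in the first 3 WT replicates but 13.9% in WT replicate 4, inside the KO range of 12.8% to 25.2%. Most genes were also higher in KO when given in CPM: 94.6% had a difference above 0 on the log2(CPM + 1) scale, with a median of 1.10. Relative values, which are log2(CPM + 1) minus the median of all listed genes in the same library, remove that shift, and on this scale the median gene differed by 0.12. There, 57.9% of all genes had a difference above 0. On both scales the change of genes with low CPM is understated.

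All 15 endothelial marker genes were listed, and none was at 0 in any library. They summed to 847 to 3039 CPM in WT and 2725 to 6210 CPM in KO, with WT replicate 4 at 3039 CPM inside the KO range. The 9 adipocyte markers summed to 542 to 1171 CPM in WT and 669 to 2088 CPM in KO, so adipocyte marker RNA was present in both groups. The 8 macrophage markers summed to 187 to 830 and 406 to 1015 CPM, the 7 listed of 8 fibroblast markers to 2687 to 8884 and 1660 to 12717 CPM, and the 5 listed of 8 mural markers to 101 to 229 and 276 to 465 CPM. The 6 listed of 8 skeletal muscle markers summed to 42.3 to 119 CPM in WT and 222 to 6658 CPM in KO, the highest in KO replicate 5, with Tnni2 at 0 in 1 library. Of the lymphocyte markers 1 of 7 was listed (Ptprc), of the erythroid markers 3 of 3, of the Schwann cell markers 2 of 3 and of the mesothelial markers 0 of 3. Fewer cells of a type, less RNA per cell and a less specific pull-down cannot be told apart in these libraries. Whether RNA of these other cell types had a part in the differences below was not tested.

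The element the receptor reads is shown first, because the windows before the start sites of 3 of the 7 genes differed in it. The letters TGTTCT, or AGAACA on the other strand, are 1 copy of it, and 2 inverted copies 3 bases apart make a full element. RefSeq promoter windows (GRCm38.p6, 250 bases before each start site) were examined for 5 of the 7 genes, 12 windows in all. None was found for Rasd1. Windows of Nr3c1 were not examined here, so nothing is said of its copies. Such a copy stood in 16.1% of the 32817 windows of all genes, and a full element in 3 of them, of the genes Sgk1, Acnat2 and Gm35041. Below, in capitals, are the copies found before a start site of Sgk1 (chr10:21993640-21993889, plus strand, all 250 bases), Ddit4 (chr10:59951835-59952020, minus strand, 186 bases) and Tsc22d3 (chrX:140600660-140600772, minus strand, 113 bases). For Ddit4 and Tsc22d3 the stretch ends where an annotated exon begins, and both lie outside any annotated gene body of theirs. The Sgk1 stretch lies in an intron of longer annotated Sgk1 transcripts and overlaps no exon.
Sgk1: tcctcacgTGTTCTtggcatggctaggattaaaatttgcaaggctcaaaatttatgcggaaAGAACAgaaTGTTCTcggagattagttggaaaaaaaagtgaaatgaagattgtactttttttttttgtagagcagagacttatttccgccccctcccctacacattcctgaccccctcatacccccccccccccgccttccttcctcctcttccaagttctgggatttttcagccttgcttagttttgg
Ddit4: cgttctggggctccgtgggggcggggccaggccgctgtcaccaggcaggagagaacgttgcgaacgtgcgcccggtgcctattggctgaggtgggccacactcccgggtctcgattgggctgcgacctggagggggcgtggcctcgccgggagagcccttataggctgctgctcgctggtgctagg
Tsc22d3: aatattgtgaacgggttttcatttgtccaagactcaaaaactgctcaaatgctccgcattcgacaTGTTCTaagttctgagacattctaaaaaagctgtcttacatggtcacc

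The Sgk1 window held 3 copies, of which the last 2 made the full element, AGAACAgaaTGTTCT at chr10:21993701-21993715. That element lay 189 bases before this start site and 965 bases before the next start site downstream. Sgk1 had 6 windows in the table, and copies stood in 3 of them. The Tsc22d3 window held 1 copy, 185 bases before the start site, and its other windows none. No copy stood in the windows of Ddit4, Fkbp5 or Klf9. A match is a description of letters and not a site, and windows this short say nothing of elements farther away.

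Rasd1 (ENSMUSG00000049892; GRCm38 chromosome 11, 59963181 to 59964944, minus strand) encodes a small GTPase of the Ras family first described as a gene induced by the synthetic glucocorticoid dexamethasone. It stood at 49.5, 36.8, 46.8 and 53.2 CPM in the 4 WT replicates in order, and at 17.6, 12.0, 18.0, 13.5 and 5.40 CPM in KO replicates 1 to 5. Every KO library lay below every WT library. Only 3 of the 11802 genes (0.0254%) had CPM in all KO libraries below all WT libraries, and the other 2 were Axin2 and Rprl3. The values rest on 56 to 110 reads per library in WT and 21 to 58 in KO. In KO replicate 5, the 21 reads allow 3.34 to 8.26 CPM (95% Poisson interval, counting error only). The group means were 46.6 ± 7.04 CPM (SD, n = 4) and 13.3 ± 5.13 CPM (SD, n = 5), a 3.50-fold higher mean in WT.

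On the relative scale Rasd1 passed from the upper to the lower part of each library. It stood 2.79, 1.74, 2.19 and 1.66 log2 units above the median gene in WT replicates 1 to 4. In KO replicates 1 to 5 it stood at -0.20, -0.45, -0.24, -0.65 and -1.96, below the median gene in all 5. Groups without overlap in this direction were seen for 1.74% of all genes. The relative difference was -2.80 (SE 0.421), with a 95% interval from -3.67 to -1.92, and 9 genes had a more negative one. With KO replicate 5 left out it was -2.48.

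**Figure D1:**
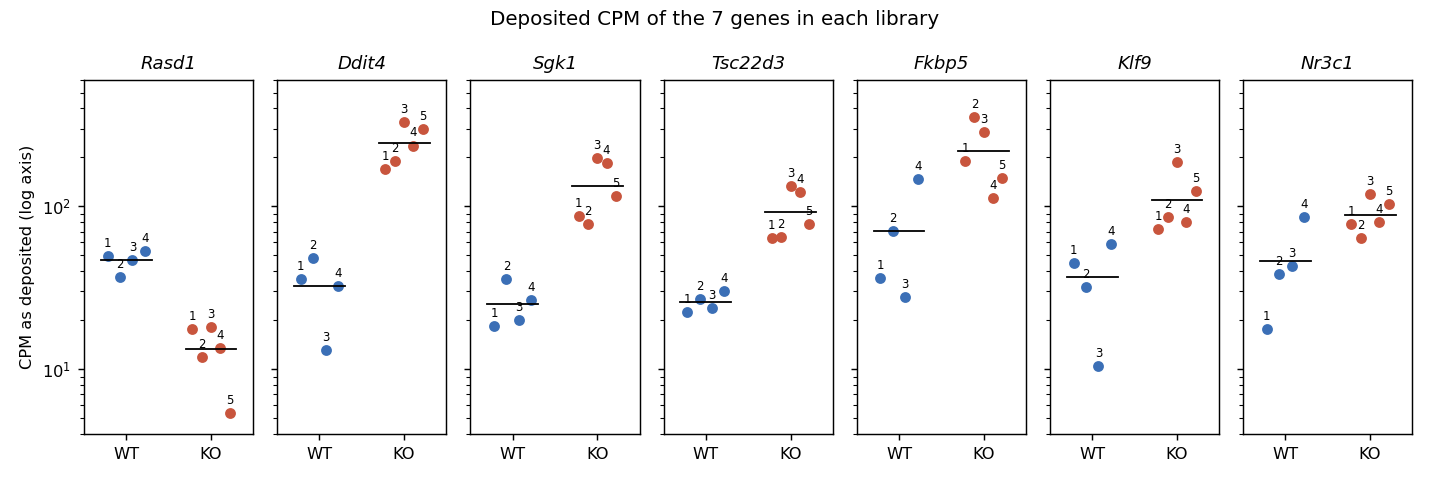
Deposited CPM of the 7 genes on a log axis, with 1 point for each of the 4 WT and 5 KO libraries, numbered by replicate, and a bar at each group mean. Rasd1 lies between 5.40 and 18.0 CPM in KO and between 36.8 and 53.2 CPM in WT, while Ddit4, Sgk1, Tsc22d3 and Klf9 lie higher in every KO library than in any WT library.

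Ddit4 (ENSMUSG00000020108; GRCm38 chromosome 10, 59949669 to 59951834, minus strand) encodes REDD1, an inhibitor of the growth kinase complex mTORC1 that acts through the TSC complex. Its values ran the other way. They were 36.0, 48.3, 13.1 and 32.3 CPM in WT replicates 1 to 4, and 170, 190, 330, 237 and 300.2 CPM in KO replicates 1 to 5. The lowest KO library was above the highest WT library, as was so for 18.7% of all genes in CPM. The values rest on 25 to 122 reads in WT and 397 to 1167 in KO. The means were 32.4 ± 14.6 CPM (SD, n = 4) and 245 ± 69.1 CPM (SD, n = 5), a 7.56-fold higher mean in KO.

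Relative to the median gene, Ddit4 stood at 2.34, 2.13, 0.44 and 0.96 in the 4 WT replicates in order, and at 3.00, 3.43, 3.88, 3.39 and 3.60 in KO replicates 1 to 5. The groups stayed apart, which 2.07% of all genes did in this direction. WT replicates 3 and 4 were the low ones, and the KO libraries were closer to each other (SD 0.32) than the WT libraries (SD 0.92). The relative difference was 1.99 (SE 0.357), with a 95% interval from 1.25 to 2.74, and 20 genes had a larger one. Leaving out WT replicate 3 gave 1.65, and leaving out WT replicate 1 gave 2.29.

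Sgk1 (ENSMUSG00000019970; GRCm38 chromosome 10, 21882184 to 21999903, plus strand) encodes a serine and threonine kinase that regulates ion channels and transporters and is switched on by mTORC2 and PDK1. It stood at 18.5, 35.6, 20.0 and 26.6 CPM in the 4 WT replicates in order, and at 86.8, 77.4, 197, 185 and 116 CPM in KO replicates 1 to 5. All KO libraries were above all WT libraries. KO replicates 3 and 4 were the highest. The mean was 5.27-fold higher in KO, 133 ± 55.6 CPM (SD, n = 5) against 25.2 ± 7.82 CPM (SD, n = 4). Relative to the median gene the groups also stayed apart, at 0.69 to 1.70 in WT and 2.04 to 3.14 in KO, with a difference of 1.32 (SE 0.330) and a 95% interval from 0.63 to 2.01. That difference was above those of 97.5% of all genes.

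Tsc22d3 (ENSMUSG00000031431; GRCm38 chromosome X, 140539528 to 140600659, minus strand) encodes GILZ, a leucine zipper protein that carries part of the anti-inflammatory action of glucocorticoids. It stood at 22.5, 26.9, 23.6 and 30.4 CPM in the 4 WT replicates in order, and at 64.4, 64.5, 133, 122 and 78.5 CPM in KO replicates 1 to 5. As with Sgk1, KO replicates 3 and 4 were the highest, and the groups did not overlap in CPM. The mean was 3.57-fold higher in KO, 92.4 ± 32.7 CPM (SD, n = 5) against 25.9 ± 3.56 CPM (SD, n = 4). Relative to the median gene they did overlap, since WT replicate 1 (1.69) was above KO replicates 1 (1.61) and 5 (1.67). The relative difference was 0.76 (SE 0.317), above 86.7% of genes.

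Klf9 (ENSMUSG00000033863; GRCm38 chromosome 19, 23141226 to 23168134, plus strand) encodes a zinc finger transcription factor that glucocorticoids induce in many cell types. It stood at 45.0, 32.1, 10.5 and 58.9 CPM in the 4 WT replicates in order, and at 72.6, 86.0, 187, 79.7 and 123 CPM in KO replicates 1 to 5. The groups did not overlap in CPM, with a 3.00-fold higher mean in KO, but WT spread widely, from 20 reads in replicate 3 to 100 in replicate 1. Relative to the median gene WT ran from 0.14 to 2.66 and KO from 1.79 to 3.07, so the groups overlapped. The relative difference of 0.72 (SE 0.408) came to 0.26 when WT replicate 3 was left out and to 1.10 when WT replicate 1 was.

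Fkbp5 (ENSMUSG00000024222; GRCm38 chromosome 17, 28399094 to 28517527, minus strand) encodes FKBP51, a co-chaperone that lowers the hormone affinity of the receptor and is itself induced by it, which closes a feedback loop. It stood at 36.5, 70.4, 27.8 and 148 CPM in the 4 WT replicates in order, and at 191, 356, 288, 112 and 149 CPM in KO replicates 1 to 5. WT replicate 4 was above KO replicate 4 and level with KO replicate 5, so the groups overlapped, although the mean was 3.10-fold higher in KO. The highest KO library for Fkbp5 was replicate 2, which was the lowest for Sgk1. The relative difference was 0.82 (SE 0.389), and 1.06 without WT replicate 4.

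Nr3c1 (ENSMUSG00000024431; GRCm38 chromosome 18, 39410545 to 39519421, minus strand) encodes the glucocorticoid receptor. It stood at 17.6, 38.4, 43.1 and 85.5 CPM in the 4 WT replicates in order, and at 77.4, 63.6, 119, 80.2 and 104 CPM in KO replicates 1 to 5. WT replicate 4 lay within the KO range. The mean was 1.93-fold higher in KO, and the difference on the log2(CPM + 1) scale, 1.10, was the same as the median of all genes. Relative to the median gene, WT ran from 1.35 to 2.33 and KO from 1.84 to 2.42, and the difference was 0.13 (SE 0.297), with a 95% interval from -0.49 to 0.74, near the median of all genes. Its sign turned without WT replicate 1 (-0.06).

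**Figure D2:**
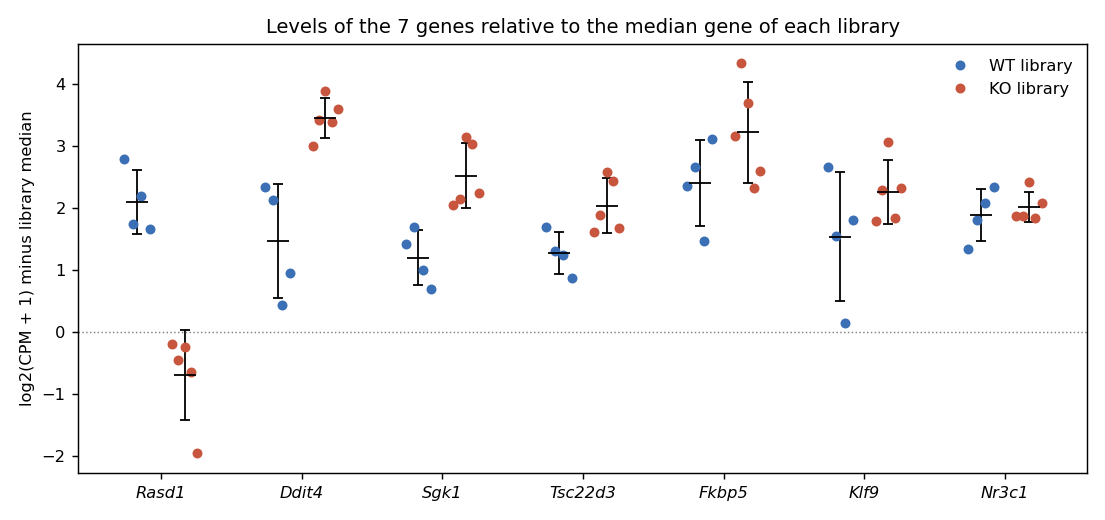
Log2(CPM + 1) minus the library median for the 7 genes, with 1 point per library (4 WT, 5 KO), and the mean and SD of each group as a bar with whiskers. Rasd1 lies below 0, the level of the median gene, in all 5 KO libraries, Ddit4 and Sgk1 lie apart in the other direction, and the groups of the other 4 genes overlap.

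Counted over the 7 genes, CPM lay apart with KO higher for 4 (Ddit4, Sgk1, Tsc22d3, Klf9) and with KO lower for 1 (Rasd1), against 18.7% and 0.0254% of all genes, while Fkbp5 and Nr3c1 overlapped. On the relative scale 2 lay apart with KO higher and 1 with KO lower, against 2.07% and 1.74%. At an adjusted p under 0.05 in limma, a linear model fitted over all genes, the deposited values gave 6 of the 7 as higher and 1 as lower, against 32.0% and 0.203% of all genes. The relative values gave 1 as higher (Ddit4) and 1 as lower (Rasd1), against 0.0339% and 0.0763% of all genes. With edgeR on whole reads recovered from the CPM, 0 were higher and 1 was lower, against 0.00847% and 0.0339%. DESeq2 on the same reads gave 2 as higher (Ddit4 and Sgk1) and 1 as lower, against 0.246% and 0.949%. At an unadjusted p under 0.05 in limma on relative values, 4 were higher and 1 was lower, against 5.99% and 5.69%. On relative values in limma, Rasd1 was no longer called when WT replicate 1 or 3 was left out, nor Ddit4 when WT replicate 1, 3 or 4 or KO replicate 2, 3 or 4 was. Sgk1 was called when KO replicate 1 was left out, but with none of the other 8 libraries left out. Since the genes were chosen with this comparison known, nothing is read from these counts.

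Compared per kilobase of annotated exon, which sets genes of different length on 1 scale, Rasd1 was the highest of the 7 in WT and the lowest in KO. Its mean level per kilobase was 28.9 ± 4.37 CPM (SD, n = 4) in WT and 8.25 ± 3.18 CPM (SD, n = 5) in KO. Ddit4 came next in WT, at 18.5 ± 8.30 CPM per kilobase, and led in KO, at 140 ± 39.3. The other 5 lay together in WT, from 5.13 CPM per kilobase for Sgk1 to 7.60 for Klf9, and neighbours in that order differed by less than the larger of their SDs. In KO, Sgk1 (27.0), Fkbp5 (23.2), Klf9 (22.8) and Tsc22d3 (21.3 CPM per kilobase) did not differ beyond their spread, and Nr3c1 (11.6) and Rasd1 were the lowest. Isoforms were not separated, so this order is approximate.

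Ratios between genes of 1 library do not depend on the scale of that library. The ratio of Rasd1 to Ddit4 CPM was 1.38, 0.762, 3.56 and 1.65 across the WT replicates in order, against 0.104, 0.0630, 0.0546, 0.0569 and 0.0180 in KO replicates 1 to 5. The lowest WT ratio was 7.34 times the highest KO ratio. Of the 21 pairs among the 7 genes, 10 had ratios that did not overlap between groups. All 6 pairs with Rasd1 were among them, with lowest WT ratios 2.73 (Rasd1 to Nr3c1) to 7.34 times the highest KO ratio. Of the 15 pairs without Rasd1, 4 lay apart: Ddit4 to Tsc22d3, Ddit4 to Klf9, Ddit4 to Nr3c1, and Sgk1 to Nr3c1. The margins of these 4 were small, the lowest KO ratio being 1.06 to 1.17 times the highest WT ratio. The share of all gene pairs that lie apart was not counted, and the 6 pairs with Rasd1 share 1 gene. Nothing is therefore read from these counts of pairs. Within each library Sgk1 and Tsc22d3 kept a narrow ratio, 0.820 to 1.32 in WT and 1.20 to 1.52 in KO.

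**Figure D3:**
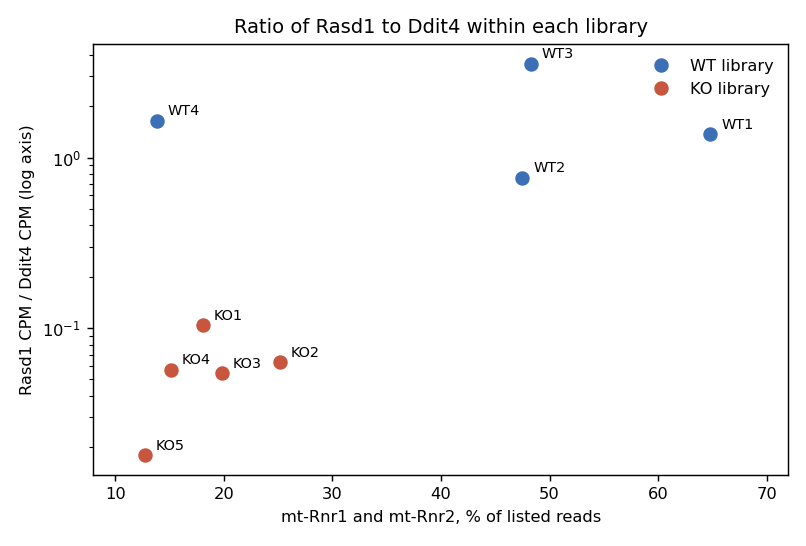
Ratio of Rasd1 to Ddit4 CPM in each library (log axis) against the share of listed reads taken by mt-Rnr1 and mt-Rnr2, with 1 point for each of the 4 WT and 5 KO libraries. WT4, which is WT replicate 4, has a share of 13.9%, within the KO range, and a ratio of 1.65, with the other WT libraries and above the KO maximum of 0.104. That ratio lies above the KO maximum because the ratios of the 2 groups do not overlap at all.

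WT replicate 4 shared the low mitochondrial rRNA share and the higher endothelial marker sum of the KO libraries, so it was set beside them gene by gene in CPM. Its Rasd1 (53.2 CPM) was the highest of all 9 libraries in CPM, above the KO range of 5.40 to 18.0. Relative to the median gene, Rasd1 in WT replicate 4 (1.66) was the lowest of the WT libraries, though above all KO libraries. The same held after rescaling without the mitochondrial rRNAs (61.6 CPM). Ddit4, Sgk1, Tsc22d3 and Klf9 in WT replicate 4 (32.3, 26.6, 30.4 and 58.9 CPM) were below the KO range. Relative to the median gene, its Klf9 (1.80) lay inside the KO range of 1.79 to 3.07. Fkbp5 and Nr3c1 in WT replicate 4 were within the KO range. For Rasd1, Ddit4, Sgk1, Tsc22d3 and Klf9 no WT library overlapped the KO range in CPM, so the place of WT replicate 4 was already given. The share of all genes with WT replicate 4 outside the KO range was not counted, and nothing is read from these places. This is 1 library, and no replicated comparison at matched shares could be made.

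Rescaling every library without mt-Rnr1 and mt-Rnr2 left 21 genes (0.178%) called higher and 4 (0.0339%) called lower in limma over 11800 genes, with a median difference of 0.59. Rasd1 was then at 89.4 ± 34.4 CPM (SD, n = 4) in WT and 16.3 ± 6.43 CPM (SD, n = 5) in KO, a difference of -2.42 (SE 0.427) on the log2 scale. Ddit4 was at 63.5 ± 37.9 and 297 ± 79.5 CPM, a difference of 2.39 (SE 0.371). On this scale the groups of Rasd1, Ddit4, Sgk1 and Tsc22d3 did not overlap, and those of Fkbp5, Klf9 and Nr3c1 did. The share of all genes that lay apart on it was not counted. The differences of the other 5 were 1.72 for Sgk1, 1.16 for Tsc22d3, 1.21 for Fkbp5, 1.12 for Klf9 and 0.52 for Nr3c1.

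**Figure D4:**
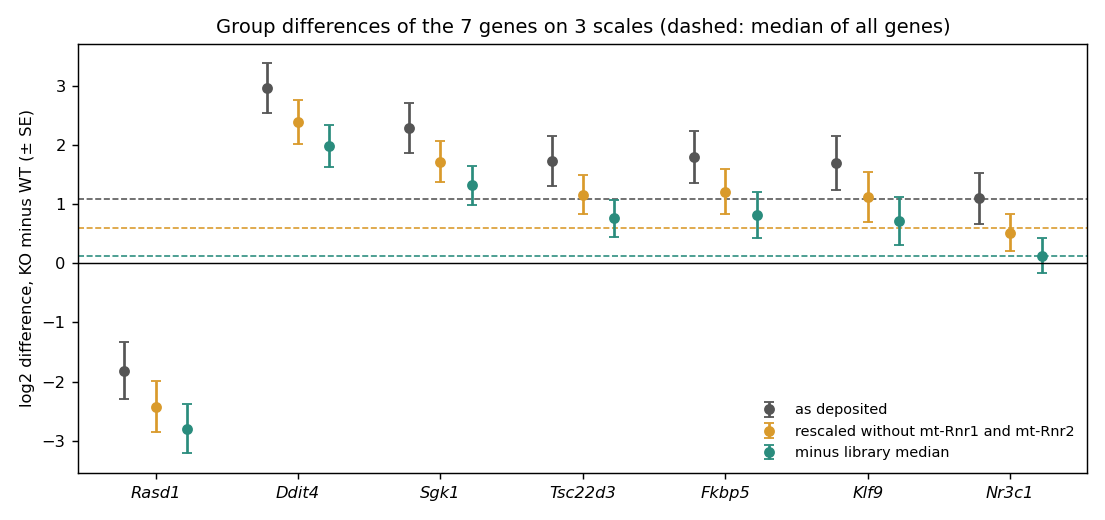
Difference between group means (KO minus WT, log2 scale, with its SE) of the 7 genes for CPM as deposited, CPM rescaled without the 2 mitochondrial rRNAs, and values relative to the library median; dashed lines give the median of all genes on each scale (1.10, 0.59 and 0.12). Rasd1 is below 0 on all 3 scales, and Nr3c1 lies near the dashed line on each.

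The 15 endothelial markers had a median relative difference of 0.50. All 15 were above 0, beside 57.9% of all genes, and so were 6 of the 7 genes, all but Rasd1. Limma on relative values, and edgeR and DESeq2 on the recovered reads, called 0 of the 15 markers in either direction. At an unadjusted p under 0.05 in limma on relative values, 4 of the markers were higher and 0 lower, beside 5.99% and 5.69% of all genes. In the deposited values limma called 14 of the 15 higher, beside 32.0% of all genes. Set against the mean log2 level of those 15 markers in the same library, Rasd1 was lower in KO by a difference of -3.34. Ddit4 was higher by 1.45, and neither overlapped. The margin was small for Ddit4, at 0.07 in WT replicate 1 against 0.15 in KO replicate 5. For Rasd1 the nearest libraries were WT replicate 4 (-1.22) and KO replicate 1 (-2.72). On that scale Sgk1 (0.77), Tsc22d3 (0.22), Fkbp5 (0.27), Klf9 (0.18) and Nr3c1 (-0.42) all overlapped between groups. How many of all genes lay apart on it was not counted. The part of skeletal muscle RNA was not tested. Its markers summed to 222 to 6658 CPM in KO and 42.3 to 119 CPM in WT, so it cannot be told apart from genotype. KO replicate 5, with 6658 CPM of muscle markers, was the lowest KO library for Rasd1 and not the highest for any of the 7 genes. Such ranks within KO rest on 1 library and cannot speak to the difference between groups.

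The KO libraries did not rank alike for all 7 genes. KO replicate 3 was the highest in CPM for Rasd1, Ddit4, Sgk1, Tsc22d3, Klf9 and Nr3c1, whereas Fkbp5 was highest in KO replicate 2. Sgk1 and Tsc22d3 shared the order of the first 3, replicates 3, 4 and 5. Over all 9 libraries, the root mean square gap between their relative profiles, each centred on its own mean, was 0.34 log2 units. Among 10568 other genes with a symbol and a mean of at least 5 CPM, Tsc22d3 ranked 7 in nearness to Sgk1. Seen from Tsc22d3, Sgk1 ranked 51. Sgk1 ranked 27 in nearness to Ddit4, at a gap of 0.56, but Ddit4 ranked 318 in nearness to Sgk1. The other pairs ranked from 270 (Klf9, seen from Ddit4) to 10528 (Rasd1, seen from Ddit4, at a gap of 2.50). These profiles hold the difference between groups with which the genes were chosen, so nothing is read from the ranks.

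The profiles nearest to Ddit4 were those of Rhob, a small GTPase (gap 0.30), Tsn, which encodes translin (0.30), the predicted gene Gm48228 (0.40), Erap1, an aminopeptidase that trims peptides for antigen display (0.41), and Ptprk, a receptor tyrosine phosphatase (0.41). Rhob stood at 38.3 ± 13.2 CPM (SD, n = 4) in WT and 251 ± 71.6 CPM (SD, n = 5) in KO, close to the levels of Ddit4 itself. Its relative difference was 1.72 (limma adjusted p = 0.0290). The profiles nearest to Rasd1 were farther from it: Ffar2, a receptor for short-chain fatty acids (gap 0.62), Gm6611 (0.66), AC154200.1 (0.67), CT010467.1 (0.70) and Map1a, a microtubule-associated protein (0.70). Ffar2 stood at 14.1 ± 4.02 CPM (SD, n = 4) and 6.91 ± 3.39 CPM (SD, n = 5), with a relative difference of -2.00 (limma adjusted p = 0.115). Genes near in profile were picked for it, so their differences follow from the choice.

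Other genes that glucocorticoids are known to raise did not pass the test relative to the library median. Of 40 in the list, 35 had values, and limma called 0 higher and 0 lower at an adjusted p under 0.05. At an unadjusted p under 0.05, 5 were higher and 2 lower, beside 5.99% and 5.69% of all genes. edgeR called 0, and DESeq2 called 1 higher (Nfkbia, adjusted p = 0.0439), beside 0.246% of all genes. The median relative difference of the 35 was 0.39, beside 0.12 for all genes, and 26 were above 0, beside 57.9% of all genes. In the deposited values 21 of 35 were called higher in limma, beside 32.0% of all genes, and 13 of 35 lay apart in CPM with KO higher, beside 18.7%.

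Nfkbia, the inhibitor of NF-kappaB, stood at 36.5 to 130 CPM in WT and 208 to 323 CPM in KO, and its groups did not overlap relative to the library median either. Its relative difference was 0.94 (SE 0.257, limma adjusted p = 0.151). Cdkn1a, an inhibitor of the cell cycle, stood at 8.34 ± 4.39 CPM (SD, n = 4) in WT and 45.3 ± 27.3 CPM (SD, n = 5) in KO (relative difference 1.36, limma adjusted p = 0.261). Angptl4, a secreted inhibitor of lipoprotein lipase, stood at 23.4 to 53.2 CPM in WT and 88.9 to 196 in KO (0.97, limma adjusted p = 0.182). Nfkbia, Angptl4 and Cdkn1a are given beside the others because they lay apart on both scales, and the names Angptl4 and Cdkn1a were chosen after their values were seen.

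The most abundant genes of that list were Plin4, Cd163, Tgm2 and Nfkbia, of which limma called none relative to the library median. Plin4, a lipid droplet coat protein, lay at 410 ± 204 CPM (SD, n = 4) in WT and 800 ± 431 CPM (SD, n = 5) in KO, a relative difference of -0.03 (SE 0.346). Cd163, a haemoglobin scavenger receptor of macrophages, differed by 0.07 (SE 0.334) and Tgm2, a transglutaminase, by 0.76 (SE 0.301, limma adjusted p = 0.326). By role, the median was 0.28 over 9 transcription factors and co-regulators, 0.34 over 12 signalling inhibitors, 0.36 over 8 genes of metabolism and metal binding, and 0.83 over 6 secreted, surface and structural genes. Values within each role ran on both sides of 0. The clock gene Per1, which the receptor induces in many cells, differed by 0.19 (SE 0.400), and Klf15, Cebpb and Zbtb16, transcription factors, by 0.89, 1.28 and 0.53, none called. Sesn1 (-0.92) and Bcl6 (-1.20) were the 2 lower ones at an unadjusted p under 0.05. These 6 were also named after their values were seen.

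Of 19 genes that glucocorticoids are known to hold down, 6 had values, and the other 13, among them Il6, Tnf, Il1b and Ccl2, were not analysed here. Limma called 0 of the 6 higher and 0 lower, and edgeR and DESeq2 called 0. At an unadjusted p under 0.05 in limma, 1 was higher and 1 lower, beside 5.99% and 5.69% of all genes. Their median relative difference was 0.62, but it was 0.03 with the mitochondrial rRNA share and -0.03 with the endothelial marker mean as a covariate. Vcam1, an endothelial adhesion molecule for leukocytes, stood at 8.55 to 28.5 CPM in WT and 52.5 to 111 CPM in KO, apart on both scales (relative difference 1.20, SE 0.332, limma adjusted p = 0.153). Icam1, another adhesion molecule, differed by 0.53, Irf1, an interferon-response factor, by 0.15 and Nos2, inducible nitric oxide synthase, by 0.74, none called and all overlapping.

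The machinery around the receptor was measured for 22 of 23 genes. Limma called 0 higher and 0 lower relative to the library median, and edgeR and DESeq2 called 0. At an unadjusted p under 0.05 in limma, 0 were higher and 2 lower, beside 5.99% and 5.69% of all genes. The median was -0.28. Nr3c2, the mineralocorticoid receptor, which also binds corticosterone, was scarce, at 0 to 5.85 CPM in WT and 5.73 to 13.7 CPM in KO. Hsd11b1, which regenerates active corticosterone inside cells, was at 1.34 ± 1.23 and 7.10 ± 4.24 CPM, with a relative difference of 0.80 (SE 0.620). H6pd, which supplies its cofactor, differed by -0.03 (SE 0.477), and Abcb1a, an efflux pump that exports steroids, by 0.40 (SE 0.335). Hsd11b2, which inactivates the hormone, was not analysed here.

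Chaperones of the receptor lay on both sides of 0, with a median of 0.15 over 8 genes. Hsp90ab1 and Hsp90aa1, the abundant HSP90 chaperones, differed by -0.29 (SE 0.317) and -0.35 (SE 0.326), Hspa8, a constitutive HSP70, by 0.49 (SE 0.256), and Fkbp4, the relative of FKBP51 that favours receptor transport, by 0.19 (SE 0.374). Whereas 57.9% of all genes were above 0 relative to the library median, all 10 co-regulators were below, with a median of -0.48, yet none was called. Ncor1, a corepressor, stood at 434 ± 171 CPM (SD, n = 4) in WT and 443 ± 237 CPM (SD, n = 5) in KO, a relative difference of -1.02 (SE 0.352, limma adjusted p = 0.262). In the deposited values 8 of them lay above 0, so their sign depends on the scale.

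The pathway of mTORC1, the complex that REDD1 inhibits, was measured for 26 of 29 genes. Of these, 11 belong to the arm that signals amino acids to mTORC1, so the list is not a set downstream of Ddit4. Limma called 0 in either direction relative to the library median, and edgeR and DESeq2 called 0. At an unadjusted p under 0.05 in limma there were 0 too, beside 5.99% higher and 5.69% lower of all genes. The median was -0.07. Rheb, the GTPase that activates mTORC1, differed by 0.66 (SE 0.332), Mtor, the kinase, by 0.01 (SE 0.298), Eif4ebp2, a translation repressor it phosphorylates, by -0.07 (SE 0.298) and Rps6kb1, the S6 kinase, by -0.22 (SE 0.345). RNA levels do not measure the activity of this kinase.

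Around Sgk1, 6 of 7 genes were measured, with a median of 0.39. All 6 were above 0, beside 57.9% of all genes. Limma called 0 (0 at an unadjusted p under 0.05, beside 5.99% higher and 5.69% lower of all genes), as did edgeR and DESeq2. Ndrg1, a substrate of SGK1, differed by 0.17 (SE 0.406), Nedd4l, a ubiquitin ligase that SGK1 restrains, by 0.30 (SE 0.351), and Rictor and Mapkap1, subunits of mTORC2, by 0.64 (SE 0.564) and 0.93 (SE 0.602). In the deposited values 4 of the 6 were called higher, beside 32.0% of all genes.

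Relatives of the 7 genes were measured for 16 of 20, and none was called relative to the library median in limma, edgeR or DESeq2. At an unadjusted p under 0.05 in limma, 2 were higher and 0 lower, beside 5.99% and 5.69% of all genes. Klf2, an endothelial factor that answers to blood flow, was at 98.0 ± 57.2 CPM (SD, n = 4) in WT and 294 ± 103 CPM (SD, n = 5) in KO (relative difference 0.75, SE 0.308, limma adjusted p = 0.346). Tsc22d1 differed by 0.68 (SE 0.296, limma adjusted p = 0.382), close to the 0.76 of Tsc22d3, while Tsc22d2 (-0.07) and Tsc22d4 (-0.38) did not share its sign. Sgk3 differed by 0.82 (SE 0.561). The FKBP family members Fkbp1a (0.70), Fkbp4 (0.19) and Fkbp8 (0.11) were all above 0, beside 57.9% of all genes. Of the other KLF factors, Klf11 (0.76), Klf13 (0.66), Klf16 (0.42) and Klf4 (0.36) were above 0 and Klf10 (-0.39) below. Among steroid receptors, Esr1 (-0.43) was below 0 and Nr3c2 (0.40) above. The closest relatives of Rasd1 and Ddit4, Rasd2 and Ddit4l, were not analysed here.

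**Figure D5:**
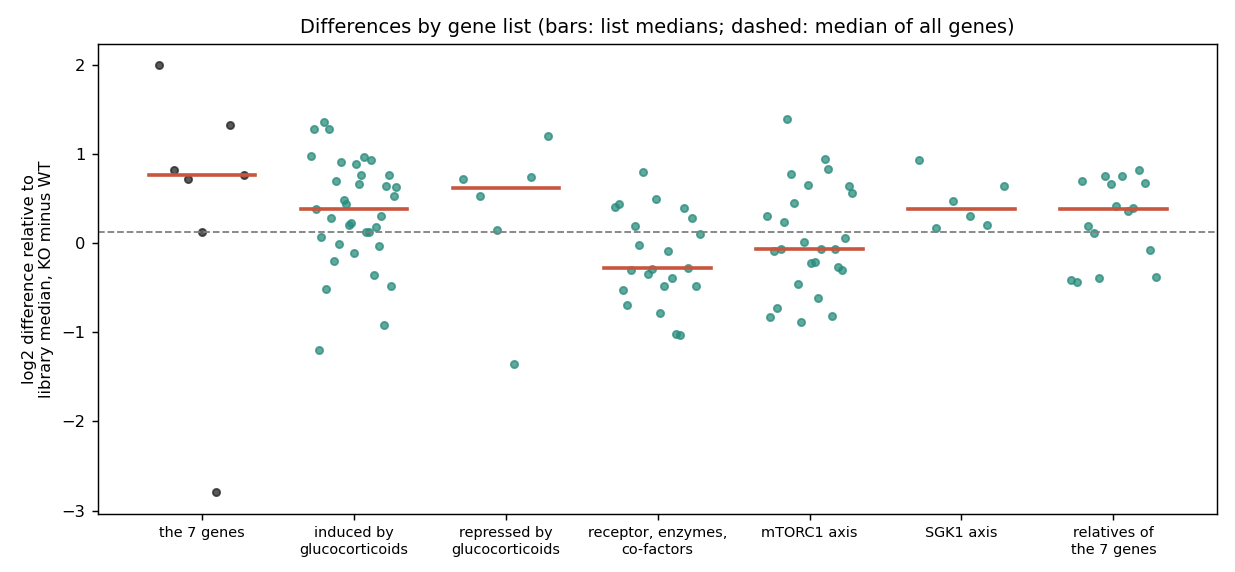
Relative difference (KO minus WT, log2 scale) of each measured gene, 1 point per gene, for the 7 genes and the 6 lists (35, 6, 22, 26, 6 and 16 genes), with a bar at each list median and a dashed line at the median of all genes (0.12). Rasd1 (-2.80) and Ddit4 (1.99) lie outside the range of every gene of the 6 lists.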

How the data were processed

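Ribosome-bound RNA was sequenced in 9 libraries, 4 labelled WT and 5 labelled KO. Captures used an antibody to the HA tag on 50 to 100 mg of fat, per the labels' protocols, and 2 to 5 ng of its RNA went into a low-input cDNA kit and tagmentation, which do not mark the strand. The authors deposited 1 table of CPM for 11802 genes. The submitters' processing notes give the builds GRCm38 and mm10 and the tools HISAT2 2.1.0, Trimmomatic 0.39, FastQC 0.11.9, R 4.0.2 and edgeR 3.32.0. Read counter, strand setting and the annotation: not given in the sources used here. Symbols and positions come from GENCODE M21 (GRCm38), which matched 11787 gene identifiers and left 15 without a symbol. No exon of the 7 genes overlaps an exon of another gene there.

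The deposited CPM were whole multiples of a single step in each library. Divided by that step, 99.98% or more of the values above 0 gave whole reads within 0.1 read, and all values under 2000 reads did. Libraries held 1034753 to 3829356 listed reads. Reads carry no molecular identifiers, so intervals cover counting error only.

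Groups were compared over all genes with limma 3.58.1 (trend on; R 4.3.3) on log2(CPM + 1), either as deposited or minus the library median (relative values). A Benjamini-Hochberg adjusted p under 0.05 over all genes was a call. No gene had a mean under 1 CPM (lowest 1.77), so that filter removed 0. edgeR 4.0.16 (quasi-likelihood) on the recovered reads called 1 gene higher and 4 lower, and DESeq2 1.42.0 called 29 higher and 112 lower and gave no adjusted p for 3678 genes. The limma script was tested on simulated data.

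The 7 genes and all lists were chosen with earlier results of these data known. Named are the 7, in each list up to 4 called genes and the 4 of highest mean CPM, every measured relative of the 7 except 1 that is not reported here, the receptor and steroid enzyme genes, and for Rasd1 and Ddit4 the 5 genes of nearest profile. Other settings tried were edgeR, DESeq2, quantile normalisation, rescaling without the mitochondrial rRNAs, limma without trend or with array weights, pseudocounts of 0.5 and 5, no filter and a filter at 5 CPM, a replicate block, each library left out, and as covariates the share of mitochondrial rRNA and the mean endothelial or adipocyte marker level.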

Additional observations from a re-analysis of the deposited data

Results flagged for a closer look

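In a check of 34 groups of libraries for a single value far from the rest, which by chance picks about 1 group in 20, 2 values stood out. Rasd1 in KO replicate 5, at -1.96 relative to the library median, lay apart from the other KO libraries, whose values ran from -0.65 to -0.20. Its gap to the nearest was 0.745 of the group's range, against a critical value of 0.710 for 5 libraries. The sum of the skeletal muscle markers in KO replicate 5 was 6658 CPM, with a gap of 0.950 of the range. The 2 values belong to the same library, and their relation was not tested.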

How the results depend on the processing

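The relative difference kept its sign under all 14 other settings and with each of the 9 libraries left out for Rasd1 (-2.95 to -2.17), Ddit4 (1.65 to 2.54), Sgk1 (1.07 to 1.65), Tsc22d3 (0.63 to 1.13), Fkbp5 (0.51 to 1.06) and Klf9 (0.26 to 1.10). Nr3c1 turned to -0.30 when the share of mitochondrial rRNA was a covariate and to -0.15 for the endothelial marker mean, and ran from -0.055 (WT replicate 1 left out) to 0.275 (WT replicate 4 left out). Calls were less stable: Rasd1 kept its call in 10 of the 14 settings and 7 of the 9 sets with a library left out, and Ddit4 in 8 and 3. Neither was called with the share of mitochondrial rRNA, the endothelial or the adipocyte marker mean as a covariate, or without trend. Genes called relative to the library median (4 higher, 9 lower) numbered 2 and 2 with a pseudocount of 0.5, 11 and 52 with array weights, 0 and 0 with the mitochondrial rRNA share or the endothelial marker mean as covariate and without trend, 1 and 0 with the adipocyte marker mean, 1 and 4 in edgeR and 29 and 112 in DESeq2, and 2 lower with a mean CPM of at least 5. With a library left out they ran from 0 (WT replicate 1 or KO replicate 3 out) to 21 (KO replicate 1 out) and from 0 (WT replicate 1 or 3 out) to 106 (KO replicate 1 out). In the deposited values (3780 higher, 24 lower) they numbered 21 and 4 after rescaling without the mitochondrial rRNAs, 16 and 2 with the mitochondrial rRNA share, 7 and 0 with the endothelial marker mean, 597 and 7 with the adipocyte marker mean, 4 and 5 after quantile normalisation and 10 lower without trend. They ran from 1094 (WT replicate 1 out) to 5916 (WT replicate 4 out) and from 7 (KO replicate 5 out) to 23 (KO replicate 2 out). The causes were not tested.

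With the replicate number as a block, 8 genes were higher and 30 lower in relative values and 1932 and 8 in deposited values. Same-numbered libraries did not deviate together (correlations from -0.040 to 0.039 across genes). That gave no sign that the numbers pair them, but cannot exclude it. Of the glucocorticoid-induced genes, 1 was called higher in DESeq2 and 0 to 1 with a library left out (Angptl4, without KO replicate 1). Of the repressed genes, 1 (Vcam1) was called with array weights, and their median of 0.62 became 0.028 and -0.026 with the mitochondrial and endothelial covariates. With the adipocyte covariate it was 0.26. The induced median of 0.39 became 0.60, 0.54 and 0.57 with the mitochondrial, endothelial and adipocyte covariates. With a library left out, list medians ran from 0.18 to 0.46 (induced), 0.37 to 0.71 (repressed), -0.40 to -0.08 (receptor), -0.062 to 0.080 (mTORC1), 0.07 to 0.72 (SGK1) and 0.05 to 0.48 (relatives). Low reads limit several of the 7 genes: Rasd1 rests on 21 to 58 per KO library, and Klf9 on as few as 20 in WT.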
